A study of Mus musculus with 6 samples.

Results

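Very long coding loci are assembled loci that match an annotated coding transcript and stretch over at least 400 kb of the genome. They were chosen by structure alone: a locus of the count table had to hold at least 1 transcript that matches an annotated one (class code =) and has a protein identifier, a span of at least 400 kb from its first to its last exon base, and at least 2 exons, outside chromosomes X and Y. This held for 337 of the 18420 loci of the table. A further 12 loci met the other criteria on chromosomes X and Y and were left out. The loci are numbered by the assembly, so each one is named here by its position on mm9 and by the annotation identifier of its longest matching coding transcript.

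The RNA came from mouse embryonic stem (ES) cells at day 0, undifferentiated and kept in LIF (a cytokine that maintains ES cells), and from embryoid bodies at day 6 of cardiac differentiation, which were formed by aggregation in hanging drops. Each stage had 3 libraries, which the series' design text calls biological replicates. All 6 libraries came from 1 cell line, Nkx2.5-EmGFP, in which a bacterial artificial chromosome reports the early heart gene Nkx2.5. The growth protocol gives the line as 129/OlaHsd, subline E14Tg2A.4, while the strain label reads C57BL/6J, and grown on embryonic fibroblast feeders or on gelatin, without saying which library had which. RNA was poly(A)-selected and sequenced in pairs of reads, and libraries held 106306699 to 114092201 counted reads. Since no identifier in the files is paired with a gene symbol, markers of ES cells, of heart cells or of feeders could not be looked up. Embryoid bodies are mixtures of cells, and in bulk RNA fewer cells of a type and less RNA per cell cannot be told apart.

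In a very long gene nearly all of the sequence is intron. RNA polymerase needs hours to cross such a gene, and introns of this size are often removed stepwise. In mammals the class is known for cell adhesion molecules, ion channels and proteins of synapses, and many of its genes have several promoters, so that 1 locus can give long and short transcripts. Mature poly(A) RNA holds the exons only, so that the level measured here does not grow with the length of the introns.

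The 337 loci had a median span of 559 kb and reached 2755 kb. Their longest intron ran from 43.2 to 1245 kb with a median of 213 kb. For the 317 that could be tested, a median of 1.70% of the span was exonic, against 22.9% for the 12669 tested autosomal coding loci with at least 2 exons and a span under 400 kb, which are called shorter loci from here on. The exonic sequence itself was of a like order, with medians of 10394 nt in very long and 7515 nt in shorter loci. Very long loci had more exons in their longest model (median 18 against 10) and more assembled transcript models (9 against 6). They shared less sequence with other loci: 74.8% of them had no exonic base in an exon of another locus, against 58.0% of shorter loci.

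Very long loci were present at low levels. Their median level, averaged over the 6 libraries, was 47.1 normalized counts per exonic kilobase, against 251 for shorter loci. A normalized count is a read count divided by 1 size factor per library. Between 333 and 337 of the loci had at least 1 read in a library. A locus entered the test if 3 or more of the 6 libraries held 10 normalized counts or more, which 317 loci did and 20 did not. The 20 held 0 to 42.9 normalized counts in any library. Among the 317, 11 reached 10 counts in every day 6 library and in no day 0 library, and 5 did so the other way round, so that these could pass only with a difference.

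As ES cells formed embryoid bodies, more of the very long loci rose than fell. Of the 317 tested, 129 were called higher at day 6 and 55 lower, while 133 did not pass the test (limma on log2(normalized count + 1), Benjamini-Hochberg adjusted p under 0.05 over all loci). That is 40.7% higher and 17.4% lower, beside 22.2% higher and 21.8% lower among all 17145 tested loci and 23.5% and 20.2% among the 12986 tested autosomal coding loci with at least 2 exons. In all, 58% of very long loci were called, where the backgrounds were 44% and 43.7%. Rises made up 70.1% of the calls of very long loci, 53.2% of those of shorter loci and 50.4% of those of all loci. The median log2 change (day 6 minus day 0) was 0.52 for very long loci, against 0.06 for shorter loci and 0.02 for all. This compares loci, which are not independent replicates, and no test over loci was made, so that the excess of rises is a description of these libraries. Among the 273 very long loci with at least 10 normalized counts in every library, 108 were higher and 46 lower, which leaves rises at 70.1% of calls and the median log2 change at 0.40. Shorter loci were not put through that filter, so that this share has no background of its own. With at least 50 counts in 3 libraries, rises were 71.2% of calls in very long loci. They were 50.8% in shorter loci weighted to the same levels.

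Taken without its sign, the log2 change had a median of 1.14, against 0.71 in shorter loci weighted to the same levels. That measure pools rises and falls. A called rise of at least 2-fold was seen for 113 very long loci (35.6%, against 14.4% of all tested loci and 13.6% of shorter coding loci) and a fall of that size for 49 (15.5%, against 17.4% and 14.9%). At 8-fold or more there were 32 rises (10.1%, against 3.51% and 3.01%) and 7 falls (2.21%, against 3.14% and 2.57%). Falls of either size were thus about as frequent as in coding loci of shorter span when levels were not matched. Shares by size of change were not computed at like level. There, 17.4% of very long and 23.9% of shorter loci were called lower at any size. Rises had a median of 1.96 on the log2 scale and ran from 0.38 to 5.03. Falls had a median of -1.61 and ran from -0.40 to -3.48, leaving out uc009ehd.1, which had no read at day 6 and so has only a bound. The stages did not overlap, library by library, at 209 very long loci (65.9%, against 57.3% of all tested loci). Of these, 147 were higher (46.4%, against 29.5%) and 62 lower (19.6%, against 27.7%). The 133 uncalled loci had log2 changes between -1.53 and 1.60 with a median SE of 0.34, and 5 of them differed by at least 1 in size.

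**Figure D1:**
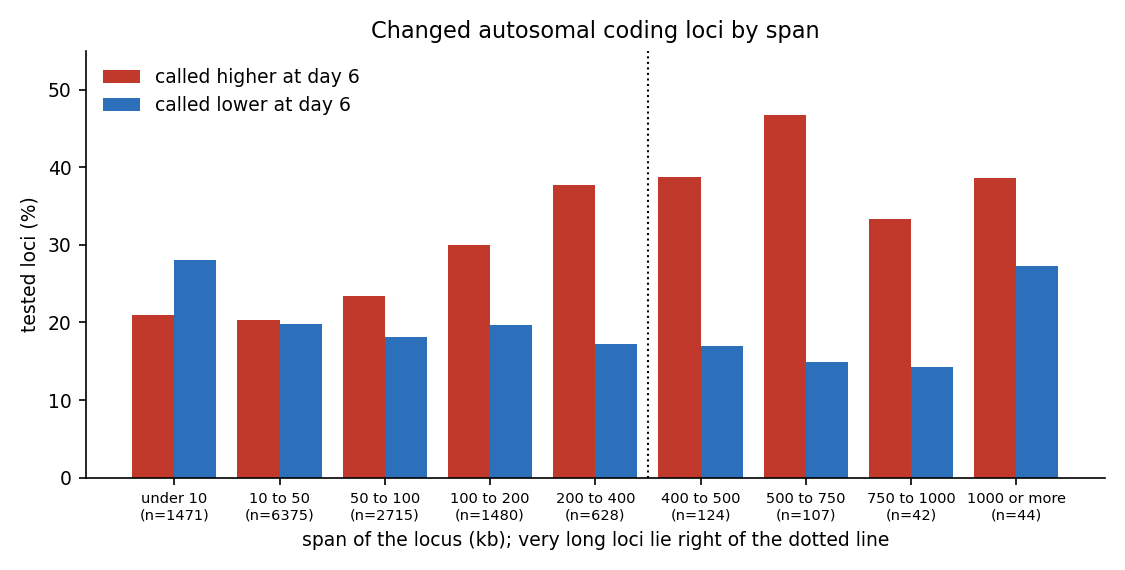
Percentage of tested autosomal coding loci with at least 2 exons that were called higher (red) or lower (blue) at day 6, by the span of the locus in kb, with the number of loci under each class. The share called higher goes from 20.9% under 10 kb to 46.7% at 500 to 750 kb, and the share called lower is below it in every class from 10 kb up.

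The excess of rises did not begin at 400 kb. Ordered by span, rises made up 42.7% of calls for loci under 10 kb, 50.6% at 10 to 50 kb, 56.3% at 50 to 100 kb, 60.4% at 100 to 200 kb and 68.7% at 200 to 400 kb. Within the very long loci the share was 69.6% at 400 to 500 kb (124 loci), 75.8% at 500 to 750 kb (107 loci), 70% at 750 to 1000 kb (42 loci) and 58.6% at 1000 kb or more (44 loci). Unweighted, the percentages by span class increase up to 400 kb and show no further order beyond it. Set against loci under 400 kb weighted to the levels of each class, the picture differs, since the classes sit at different levels. The median normalized count was 261 under 10 kb, highest at 50 to 100 kb with 4166.5, and 114 at 1000 kb or more. Rises as a share of the calls of these weighted loci were 47.3, 54.4 and 56.8% for the 3 classes under 100 kb, where the class itself was no higher, and 56.2% and 52.9% for 100 to 200 and 200 to 400 kb. They were 48.8% for 400 to 500 kb, 49.98% for 500 to 750 kb and 42.5% for 750 to 1000 kb, so that the gap to the class widened over these spans. Loci of 1000 kb or more had 17 rises and 12 falls, and with 27.3% lower they came close to the 28.1% lower among loci under 10 kb. They were also the scarcest class, and among loci under 400 kb at 36.6 to 131 normalized counts, where its median lies, 31.5% were called lower. Shorter loci weighted to the levels of this longest class had rises as 41.9% of calls, a smaller gap than in the classes from 400 to 1000 kb. Across the 317 very long loci Spearman's rho between span and log2 change was -0.05, and that between the longest intron and log2 change was 0.03. These are descriptions across loci that share their libraries.

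**Figure D2:**
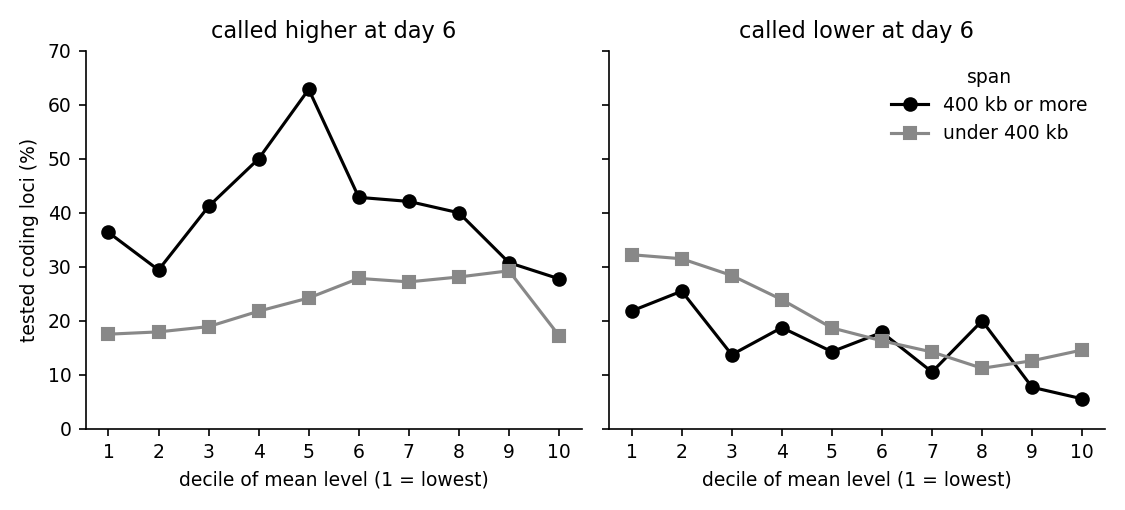
Percentage of tested coding loci called higher (left) or lower (right) at day 6 in each decile of mean level, for very long loci (black circles, 13 to 55 per decile) and shorter loci (grey squares, 1244 to 1285 per decile). The black line is above the grey one in all 10 deciles on the left, and below it in 8 of 10 on the right.

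At like levels the direction of change still differed from that of shorter loci. Mean levels were cut into deciles over all tested autosomal coding loci with at least 2 exons, and shorter loci were weighted so that each decile counted as often as among very long loci. Shorter loci then had 21.4% called higher and 23.9% called lower, with rises as 47.3% of calls and a median log2 change of -0.01. Against these, very long loci had 40.7% higher, 17.4% lower, 70.1% rises and a median of 0.52. The share called higher was larger among very long loci in 10 of 10 deciles, the median log2 change in 10 of 10, and the share of rises among calls in 9. The gap was widest in the fifth decile, at 955 to 1951 normalized counts, where 22 of 35 very long loci (62.9%) and 24.2% of shorter loci were called higher. In the ninth decile, with 13 very long loci, the shares were 30.8% and 29.3%. The share of rises among calls exceeded that of shorter loci by 22.8 percentage points. The excess was 21.3 points when exonic length was matched together with level, and 24.9 points against loci under 100 kb alone.

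A long annotated transcript and a long assembled locus were not the same thing. For 295 of the 337 loci, 1 matching coding transcript itself spanned 400 kb or more. In the other 42 the longest matching coding transcript spanned 4.61 to 399 kb. These are called long only as assembled, and spans of their matching noncoding transcripts were not examined. Among the 275 tested loci with a matching coding transcript of at least 400 kb, 118 were higher and 43 lower (73.3% rises, median log2 change 0.59). Shorter loci at like level had 46.8% rises. The 42 others had 11 rises and 12 falls (47.8% rises, median 0.07), against 50.8% at like level. The excess of rises was seen among loci with a transcript of that length, and whether the 2 kinds differ was not tested. The counts pool all transcripts of a locus, so that a short and a long transcript of 1 locus cannot be told apart. In 76 tested loci every matching coding transcript was at least 400 kb long. Of these, 38 were higher and 11 lower (77.6% rises, median log2 change 0.87). Shorter loci at like level had 42.3% rises and a median of -0.11. The 241 tested loci with some matching coding transcript under 400 kb had 91 rises and 44 falls (67.4% rises, median 0.35). Shorter loci at the level of these 241 had 49.01% rises and a median of 0.02. Whether the 76 and the 241 loci differ was not tested.

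**Figure D3:**
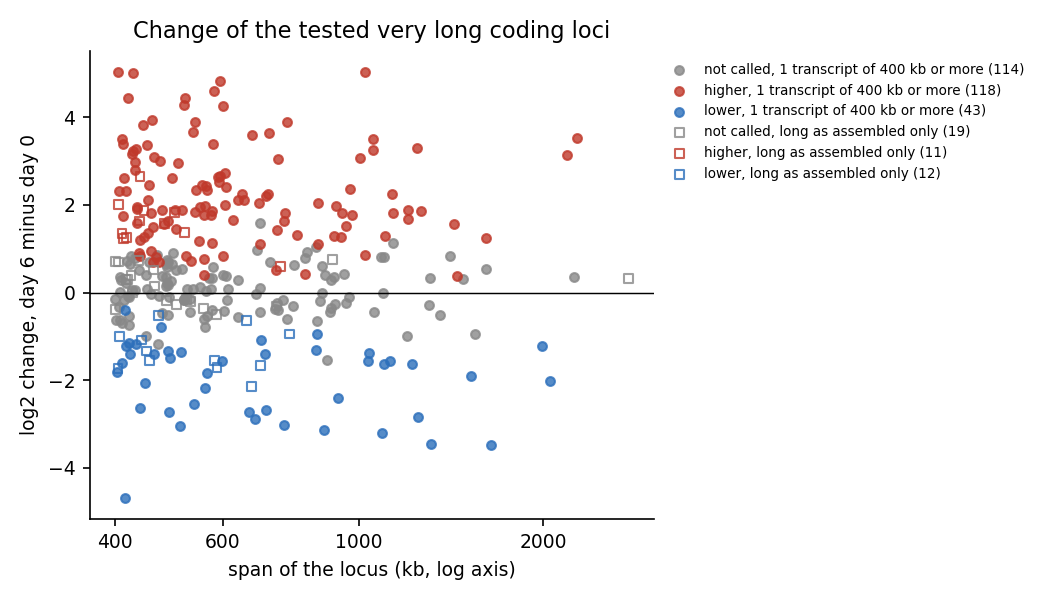
Log2 change from day 0 to day 6 of the 317 tested very long loci against their span in kb (log axis), red for called higher, blue for called lower and grey for not called. Filled circles have 1 matching coding transcript of at least 400 kb and open squares are long only as assembled; calls of both directions lie along the whole axis, with 118 red and 43 blue circles and 11 red and 12 blue squares, and the height of the lowest point, uc009ehd.1, is set by the pseudocount since it has no read at day 6.

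By number of exons, very long loci with 20 to 39 had 48 rises and 10 falls among 107 loci (82.8% rises, against 55.7% of calls in shorter loci of that exon class). Those with 2 to 9 exons had 25 rises and 13 falls of 63 (65.8% rises, against 51.5%). With 10 to 19 exons there were 45 and 25 of 112 (64.3%, against 55.4%), and with 40 or more 11 and 7 of 35 (61.1%, against 42.6%). The share of rises was higher in very long loci in each of the 4 classes, and differences between classes were not tested. Rises were 65.9% of calls where the longest intron took up to 25% of the span, 71.7% at 25 to 50% and 70.8% over 50%. The median log2 changes of these intron classes were 0.33, 0.43 and 0.64 in the same order, and differences between them were not tested. Very long loci lay on all 19 autosomes. Chromosome 9 had 12 rises and 2 falls among 16 tested loci and chromosome 3 had 8 and 0 of 15, whereas on chromosomes 7, 10 and 15 falls outnumbered rises (5 to 3, 4 to 3 and 4 to 3). Over all 317 tested very long loci, 40.7% were called higher and 17.4% lower, beside 22.2% and 21.8% of all tested loci. Shares among the other loci of each chromosome were not set beside these counts, and differences between chromosomes were not tested.

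**Figure D4:**
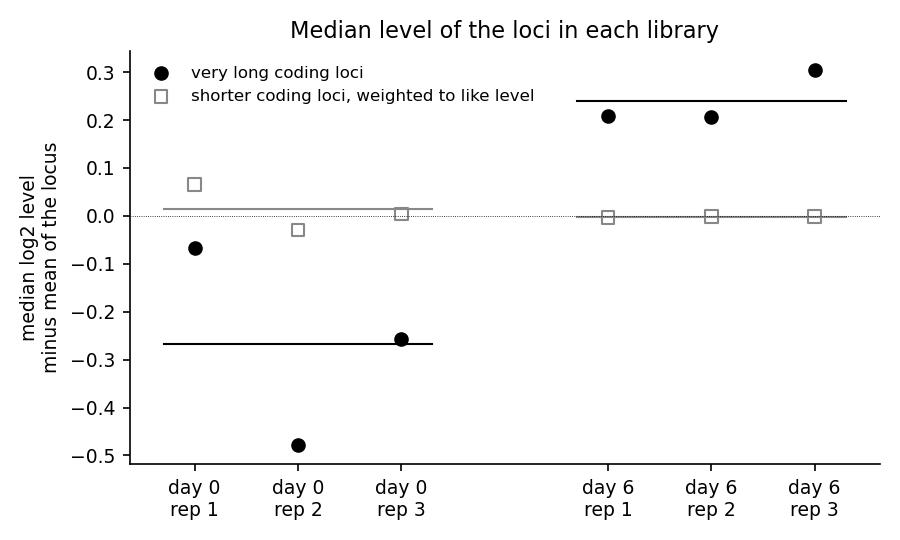
Median log2 level of the tested loci in each library, relative to the mean of each locus over the 6 libraries, for very long loci (black circles) and shorter loci weighted to like level (open grey squares), with stage means as lines. Very long loci lie at -0.07, -0.48 and -0.26 at day 0 and between 0.21 and 0.31 at day 6, while shorter loci lie within 0.07 of 0.

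The level of very long loci also differed between the undifferentiated libraries. Relative to each locus's mean over all libraries, their median level was -0.07, -0.48 and -0.26 on the log2 scale in day 0 replicates 1, 2 and 3, and 0.21, 0.21 and 0.31 at day 6. Shorter loci at like level had medians of 0.07, -0.03 and 0.00 at day 0. Every day 6 median of very long loci was above every day 0 median, and day 0 replicate 1 was the nearest to day 6. Replicate 2 held the lowest day 0 value for 180 of the 317 loci (56.8%, against 41.0% of shorter loci) and replicate 1 the highest for 166 (52.4%, against 37.5%). The order was similar among the 133 loci without a call, with replicate 2 lowest in 69 and replicate 1 highest in 73. It was not the same among the 55 called lower, where replicate 3 was highest in 26, replicate 1 highest in 16 and lowest in 22, and replicate 2 lowest in 26. The median SD of a very long locus was 0.51 at day 0 and 0.18 at day 6 on the log2 scale, against 0.36 and 0.12 for shorter loci, which sit at higher levels. Without day 0 replicate 2 the very long loci had 129 rises and 66 falls and a median log2 change of 0.42, and without day 0 replicate 1 they had 142, 52 and 0.58. The shares of shorter loci at like level moved too. They were 21.4% higher and 23.9% lower in the fit reported, 25.1% and 27.8% without replicate 2, and 24.9% and 24.8% without replicate 1. The excess of very long loci in the share called higher was 19.2 points in the fit reported. Without replicate 2 it was 15.6, the lowest of 22 alternatives.

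As a share of all normalized counts, very long loci held 1.13, 0.845 and 0.988% in the 3 day 0 libraries and 1.14, 1.10 and 1.17% at day 6. The means were 0.987 ± 0.141% and 1.14 ± 0.0369% (SD, n = 3 each), and the stages overlapped, since day 0 replicate 1 lay above day 6 replicate 2. This overlap came with the most abundant locus, uc007aoi.1: without it the shares were 0.780 to 1.02% at day 0 and 1.05 to 1.11% at day 6, which did not overlap. The difference of 0.152 percentage points became 0.0815 when day 0 replicate 2 was left out, and 0.223 without day 0 replicate 1. Loci with a matching transcript of at least 400 kb went from 0.654 ± 0.117% to 0.854 ± 0.0247% without overlap between stages, while those long only as assembled went from 0.333 ± 0.0251% to 0.285 ± 0.0122%, also without overlap. No p is given for these sums.

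The 3 largest called rises could not be ranked within their errors. One was that of uc009dcv.2 (chromosome 6, 105627682 to 106650108, plus strand), a locus of 1022 kb with up to 26 exons per model and a longest intron of 257 kb. Its normalized counts were 9.60, 12.4 and 14.0 at day 0 and 447, 458 and 360.1 at day 6. The stages were far apart, with means of 12.0 ± 2.21 and then 422 ± 53.7 (SD, n = 3 each). The log2 change was 5.03 (SE 0.31, adjusted p by limma = 1.82e-05). In all libraries its level was modest, at 47.7 normalized counts per exonic kilobase at day 6.

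A more abundant locus, uc008gxp.2 (chromosome 19, 17507316 to 17912122, minus strand), spans 405 kb and has up to 38 exons. It held 197, 123 and 278 normalized counts in undifferentiated cells and 6601, 5852 and 6096 in embryoid bodies. Every day 6 value was far above every day 0 value, and the log2 change was 5.02 (SE 0.30, adjusted p by limma = 1.72e-05). With only 3 exons per model and 1 intron of 396 kb, uc007aje.1 (chromosome 1, 15276995 to 15704295, plus strand) had a quite different structure. Its counts of 6.11, 2.07 and 2.99 at day 0 stood against 131, 159.9 and 138 at day 6 (log2 change 5.01, SE 0.41, adjusted p by limma = 6.42e-05). This locus entered the test only through its day 6 libraries, so that it could be tested only with a difference. It was at the level of a few reads at day 0. The size of its rise thus depends on the pseudocount and was 4.11 with a pseudocount of 5. On that scale uc008gxp.2 had 4.99 and uc009dcv.2 had 4.65, while edgeR gave 5.15 for uc007aje.1 and 5.09 for uc009dcv.2. Without day 0 replicate 1, uc009ogj.1 had 5.42 and passed all 3.

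The other 5 of the 8 largest rises covered a range of starting levels. The locus uc009ogj.1 (chromosome 9, 15714554 to 16306941, minus strand, 592 kb) held 329.8, 63.2 and 138 normalized counts at day 0 and 3573, 3906 and 4720.1 at day 6, a log2 change of 4.82 (SE 0.52). Its day 0 values differed widely between replicates and still lay far under those of day 6. For uc008add.1 (chromosome 16, 96812715 to 97392342, minus strand, 579.6 kb) the counts went from 88.1, 52.8 and 27.9 to 1020.0, 1147 and 1701 (log2 change 4.60, SE 0.43). On the same chromosome uc007zrh.1 (73891808 to 74412775, minus strand, 521 kb) went from 547, 243 and 356 to 6808, 7625 and 9393 (log2 change 4.44, SE 0.30). These 2 loci are on 1 chromosome and do not overlap. With up to 5 exons, uc008pef.2 (chromosome 3, 51489855 to 51909209, minus strand, 419 kb) reached the highest level per length of the 8 at day 6, 815 normalized counts per exonic kilobase. Its counts were 575, 151 and 478 before and 7803, 7458 and 7420.4 after (log2 change 4.44, SE 0.45). The last, uc007odc.1 (chromosome 12, 84313029 to 84830434, minus strand, 517 kb), had 52.3, 20.7 and 23.9 at day 0 and 827, 652 and 396 at day 6 (log2 change 4.29, SE 0.44). By limma, the adjusted p of these 5 ran from 2.66e-05 to 0.000213. In 4 of the 5 the lowest day 0 value was that of replicate 2, and without it the log2 change was 3.85 for uc008pef.2 and 4.24 for uc009ogj.1. None of the 8 shared an exonic base with another locus.

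**Figure D5:**
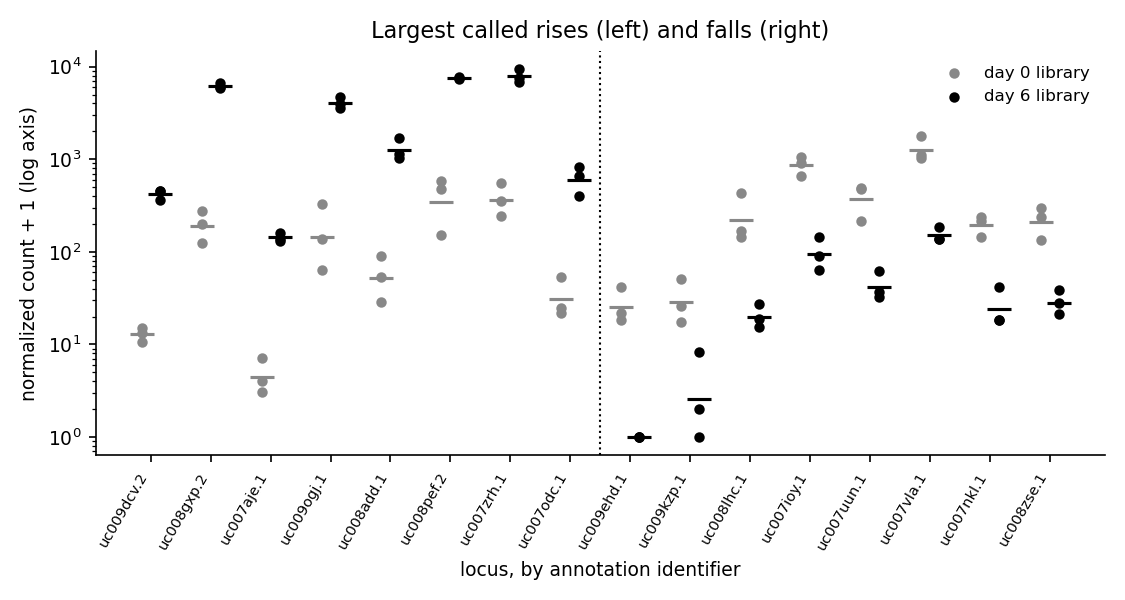
Normalized count + 1 (log axis) in each of the 3 day 0 libraries (grey) and 3 day 6 libraries (black) for the 8 largest called rises and the 8 largest called falls among very long loci, with bars at the mean of the log values. The stages do not overlap at any of the 16 loci; uc009ehd.1 is at 0 counts in all day 6 libraries.

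No library held more than 1771 normalized counts of any of the 8 largest falls, though their mean levels overlapped those of the largest rises. For uc009ehd.1 (chromosome 6, 129922100 to 130336892, minus strand, 415 kb) the counts were 17.4, 20.7 and 40.9 at day 0 and 0 in every day 6 library. Against a floor of 3 reads per library, or 3.08 normalized counts, it was at least 8.55-fold lower (adjusted p by limma = 0.000185). It entered the test only through its day 0 libraries, so that it could be tested only with a difference. Also near the limit of detection at day 6, uc009kzp.1 (chromosome 8, 15892545 to 17535385, minus strand) spans 1643 kb with up to 70 exons. It held 25.3, 16.6 and 49.9 normalized counts before and 0, 1.03 and 7.31 after (log2 change -3.48, SE 0.80, adjusted p by limma = 0.00852). This locus, too, entered the test only through its day 0 libraries. This call was lost when each stage was given its own weight in the fit (adjusted p = 0.0501). Its log2 change was -2.20 with a pseudocount of 5, -2.80 without day 6 replicate 1 and -4.33 without day 6 replicate 3.

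The remaining 6 falls were of loci with over 100 counts at day 0. The locus uc008lhc.1 (chromosome 2, 96158326 to 97471821, plus strand, 1314 kb) had 166, 142 and 436 at day 0 and 26.4, 14.4 and 17.7 at day 6, a log2 change of -3.46 (SE 0.48). In uc007ioy.1 (chromosome 11, 46709755 to 47802471, minus strand, 1093 kb) 1054, 652 and 917 counts became 61.8, 90.2 and 142 (log2 change -3.20, SE 0.36). Both are over 1000 kb long with at most 10 exons per model. With an intron of 559 kb, uc007uun.1 (chromosome 14, 93412813 to 94290009, minus strand, 877 kb) went from 215, 482 and 486 to 35.5, 31.8 and 60.5 (log2 change -3.14, SE 0.42). The most abundant of the 8 was uc007vla.1 (chromosome 15, 33012884 to 33524307, plus strand, 511 kb), at 1120.1, 1024 and 1771 before and 138, 185 and 137 after (log2 change -3.05, SE 0.29). For uc007nkl.1 (chromosome 12, 38606761 to 39360883, plus strand, 754 kb) the counts of 215, 145 and 239 fell to 17.2, 17.4 and 40.7 (log2 change -3.03, SE 0.42). Among these the smallest fall was that of uc008zse.1 (chromosome 5, 128261978 to 128938937, minus strand, 677 kb), from 234, 294 and 134 to 20.3, 26.7 and 37.6 (log2 change -2.89, SE 0.40). The stages did not overlap at any of these loci, and by limma the adjusted p of the 6 ran from 0.000115 to 0.000767.

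The 5 longest tested loci went in different directions. The longest, uc007pgd.1 (chromosome 12, 114493110 to 117248164, minus strand), spans 2755 kb only as assembled: its longest matching coding transcript covers 174 kb, and 1 model strings together 681 exons. Undifferentiated cells had 42.4 ± 19.1 normalized counts and embryoid bodies 50.7 ± 9.42 (SD, n = 3 each). The log2 change was 0.33 (SE 0.40, adjusted p by limma = 0.543), a difference within the spread of the replicates. Next came uc008tjp.1 (chromosome 4, 75587123 to 77857799, minus strand, 2271 kb), which had 557, 408 and 514 counts at day 0 and 6315, 6305 and 4465 at day 6. Its log2 level rose by 3.52 (SE 0.22, adjusted p by limma = 2.09e-05). No stage difference was detectable for uc009bst.2 (chromosome 6, 45010060 to 47254161, plus strand, 2244 kb), at 616, 167 and 652 against 485, 506 and 569.9 (log2 change 0.35, SE 0.49, adjusted p by limma = 0.595). The fit without day 0 replicate 2, its low library, gave -0.29. A rise from a few reads was seen for uc007zfr.1 (chromosome 16, 39984484 to 42176405, plus strand, 2192 kb), from 6.11, 2.07 and 3.99 to 54.8, 31.8 and 39.7 (log2 change 3.14, SE 0.46, adjusted p by limma = 0.000974). The log2 change was 2.37 with a pseudocount of 5, and the locus entered the test only through its day 6 libraries. The fifth, uc008jon.1 (chromosome 2, 40452293 to 42509118, minus strand, 2057 kb, up to 91 exons), fell from 52.3, 113 and 184 to 19.3, 25.6 and 30.3 (log2 change -2.02, SE 0.48, adjusted p by limma = 0.0102).

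The loci with the highest levels per exonic length did not pass the test. Averaged over all libraries they were uc009bct.1 with 5887 normalized counts per exonic kilobase (chromosome 6, 28430348 to 28838832, plus strand), uc007pbf.1 with 3684 (chromosome 12, 111140611 to 111821301, plus strand), uc012cqg.1 with 2550 (chromosome 3, 67696142 to 68430404, plus strand) and uc007ejw.1 with 2433 (chromosome 10, 12101593 to 12590194, minus strand). Their log2 changes lay between -0.25 and 0.28, with SE of 0.14 to 0.16. At uc009bct.1 every day 6 library was above every day 0 library, with 30963 to 34053 against 23222 to 29956 normalized counts, but by limma the adjusted p was 0.129. The values of uc012cqg.1 passed with quantile normalization (log2 change -0.42, adjusted p = 0.0219) and those of uc007ejw.1 without day 0 replicate 1 (0.31, adjusted p = 0.0374). Among uncalled loci that averaged 1000 normalized counts or more, those nearest to no change were uc008ikz.1 (chromosome 2, 16277097 to 16684362, plus strand; 3292 ± 887 and 3243 ± 579), uc007ehm.2 (chromosome 10, 6178960 to 6606280, minus strand; 23670.0 ± 4012 and 23277 ± 1351) and uc007pbf.1 (27457 ± 5387 and 26666 ± 358; SD, n = 3 each). The SE of their log2 change was 0.24, 0.15 and 0.16, so that changes of that order were not detectable.

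At the boundary of 400 kb, values are given without a test. Just inside it uc009hgl.2 (chromosome 7, 71900982 to 72301414, 400.4 kb) had 233 ± 186 normalized counts before differentiation and 171 ± 43.4 after. The locus uc007aoi.1 (chromosome 1, 33965053 to 34365670, 401 kb), the most abundant of the very long loci, was at 86299 ± 21356 and 64734 ± 6116, and uc009dch.1 (chromosome 6, 102113300 to 102514179, 401 kb) at 86.0 ± 30.4 and 138 ± 44.0. Just outside it were uc008lrs.2 (chromosome 2, 117683027 to 118082722, 399.7 kb) at 1337 ± 384 and 232 ± 17.5, uc008btt.2 (chromosome 17, 30352328 to 30750322, 398 kb) at 29282 ± 1223 and 24557 ± 276, and uc007gsa.1 (chromosome 10, 88411681 to 88807507, 396 kb) at 39.8 ± 7.62 and 387 ± 52.6 (SD, n = 3 each). Both sides of the boundary thus hold abundant and scarce loci.

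Other counted loci lay wholly inside 71 of the very long loci, 153 in all, 93 on the opposite and 60 on the same strand. Of these, 86 were annotated coding, 51 annotated noncoding and 14 unannotated antisense loci. A few, 4 of them, lay inside more than 1 host. Of the 153, 26 were called higher, 29 lower and 77 not, while 21 were not tested. Among all tested loci, 22.2% were called higher and 21.8% lower. Where host and inner locus were both called, which held for 37 pairs, 24 went the same way and 13 the opposite way. This split was not tested against an even one. A few hosts weighed heavily on this count. Without the 3 hosts that contain most loci, 20 pairs were both called, and 17 of them went the same way. No source says whether strand was used in counting, and reads in shared exonic bases cannot be told apart. Of 25 pairs whose inner locus had at most 10% of its exonic bases in other loci, 15 went the same way.

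Examples of both outcomes follow, chosen after their values were seen. Inside uc008zse.1, which fell, lies the unannotated antisense locus XLOC_027205 (chromosome 5, 128324908 to 128355177), which went from 34.8 to 6.14 normalized counts on average (log2 change -2.23, adjusted p by limma = 0.00981) and shares no exonic base. It entered the test only through its day 0 libraries. The coding locus uc008ude.2 (chromosome 4, 111087597 to 111132903) lies on the strand of its host uc012din.1. It rose by 1.83 on the log2 scale, from 499 to 1714 normalized counts (adjusted p by limma = 0.001), and the host by 1.86. On the other hand, the coding locus uc012cfb.1 (chromosome 2, 140483934 to 140497212, opposite strand) rose from 981 to 12478 normalized counts (log2 change 3.64, adjusted p by limma = 1.44e-05) inside uc008mpv.1, which fell by 1.22.

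For the 3 hosts with most inner loci, calls of the inner loci are given, and differences between the hosts were not tested. Among all tested loci, 22.2% were called higher and 21.8% lower. On chromosome 18 at 37089939 to 38001904 (plus strand), uc008eoy.1 contains 18 counted loci, 16 of them coding, and has 141093 exonic nt, of which 38.1% lie in exons of other loci. Its counts were 18754, 12471 and 22041 in undifferentiated cells and 44098, 43288 and 38825 in embryoid bodies (log2 change 1.28, SE 0.21, adjusted p by limma = 0.00162), and 5 of its 15 tested inner loci rose while 1 fell. A host that fell, uc009jus.1 (chromosome 7, 134335145 to 134776537, plus strand), also contains 18, of which 7 rose and 2 fell. Its longest matching coding transcript covers only 4.61 kb, and 76.7% of its exonic bases are shared, so that its own value (1675 ± 297 to 787 ± 110.0 normalized counts, log2 change -1.08) is uncertain. The third, uc008dmi.1 (chromosome 17, 71691787 to 72425158, minus strand), contains 10, of which 2 fell and none rose. Its own log2 level rose by 0.50 (SE 0.15, adjusted p by limma = 0.0239), a call that was lost with quantile normalization (adjusted p = 0.0503), with variance estimation without trend and robust fitting (0.0642), and without any of 4 single libraries, namely day 0 replicate 3 and each day 6 replicate (0.072 to 0.0956). Over all very long loci, 15 of the 317 tested had more than 50% shared exonic bases, and 10 of these were called.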

How the data were processed

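The authors deposited a signal per assembled locus, read counts divided by a size factor for each library. The values themselves show this, as they are whole multiples of 1 step per column (100% within 0.01 reads), and whole reads were recovered from it. The merged assembly gives exon positions and class codes. TopHat2 2.0.8, Cufflinks 2.1.1, HTSeq 0.5.4p3, DESeq and mm9 are named, without roles, per the submitters' processing notes. Strand use in counting is stated nowhere in the sources. Deposited columns left unused numbered 0.

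Tested loci held 10 or more normalized counts in 3 or more of 6 libraries. Day 6 was compared with day 0 by limma 3.58.1 (R 4.3.3; trend and robust, two-sided) on log2(normalized count + 1), a scale that understates changes of low loci. Adjustment was by Benjamini-Hochberg over 17145 loci, at 0.05. The limma fit was also run on simulated counts with the same dispersion in both stages. That setting lacks the larger spread of the day 0 libraries, so that it does not test the fit under unequal spread. edgeR 4.0.16 (TMM) and DESeq2 1.42.0 were run on recovered reads as alternatives. Spans, overlaps and weighting used Python 3.11.15 and pandas 2.3.3. Reads carry no molecular identifiers, so PCR copies cannot be told from separate molecules.

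Named loci are the 8 largest called rises and falls with at least 10 counts in every library of the higher stage, the 5 longest, the 4 with most counts per exonic kilobase, 3 on each side of 400 kb, the 3 uncalled loci with a mean of at least 1000 nearest to 0 and the 3 with most inner loci. The members, lists and rules were chosen with earlier results of these data known. No marker or gene list was looked up, since 0 identifiers carry a symbol. No sequence is shown: the reference given is of another build.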

Additional observations from a re-analysis of the deposited data

How the results depend on the processing

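Over 15 alternative fits, very long loci called higher numbered 109 to 142 (129 in the fit reported) and those called lower 41 to 66 (55); 150 to 184 of the 184 calls kept their direction and call where all were tested, 156 of 156 at a minimum of 50 counts, and none turned. Rises made up 66.2 to 73.4% of calls over 19 alternatives. Over 22 alternatives their share exceeded that of shorter loci at like level by 18.7 to 27.4 percentage points, and the median log2 change by 0.38 to 0.62. The difference in the share called lower was -6.52 points, -12.5 among loci with at most 10% shared exonic bases and -3.68 without day 6 replicate 2. edgeR gave 123 rises and 59 falls, DESeq2 130 and 60, and a weight per stage 129 and 47. Over all loci, calls ran from 5143 to 8890, with 7493 by edgeR and 8278 by DESeq2. With replicate number as a block, very long loci had 132 rises and 58 falls. Deviations of same-numbered libraries correlated at 0.176, 0.134 and 0.074, each the best of its library. Those of libraries with different numbers correlated at -0.138 to -0.007. The fit reported did not take the numbers as pairs, and these values do not settle whether libraries were paired.

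Uncalled loci near 0 changed sign: uc009hgl.2 (0.047 with quantile normalization, -0.70 to 0.46 with 1 library left out), uc008ikz.1 (-0.21 with quantile normalization, -0.059 with edgeR, -0.040 with DESeq2, -0.24 to 0.14), uc007pbf.1 (-0.17 to 0.11), uc009bst.2 (-0.29 to 0.69) and uc007ehm.2 (-0.12 to 0.12); the cause was not tested. Low counts limit the scarce loci: uc009ehd.1, uc009kzp.1 and uc007zfr.1 have no value with a minimum of 50 counts.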
